A study of Mus musculus with 8 samples.

Results

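The cardiomyocyte contractile and calcium genes are 31 mouse genes that build the heart muscle sarcomere, move calcium in heart muscle cells, or are switched on with them. Accessible chromatin was assigned to them from 3 deposited ATAC-seq peak lists. A peak belonged to a gene when that gene was the nearest of 21887 protein-coding genes to the peak's summit, within 100 kb, on RefSeq gene intervals of the mm10 assembly. All 31 genes matched the annotation. They received 291 of 172983 peaks: 90 of 48177 in the day 5 (D5) control list, 104 of 59488 in the day 7 (D7) control list and 97 of 65318 in the D7 GLI1 list. After overlapping peaks of a list were merged, these were 78, 75 and 67 regions. The farthest region inside the limit lay 88.5 kb from Ryr2 at D5 (fold 3.95) and 66.5 kb from Tpm1 in both D7 lists (folds 10.1 and 6.32). The nearest outside lay 102.8 kb from Slc8a1 (3.40), 109.8 kb from Nebl (7.74) and 102.7 kb from Myocd (2.81).

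ATAC-seq uses the Tn5 transposase to insert adapters into open DNA, so that peaks mark nucleosome-poor regulatory DNA and not transcription. The cells were cardiac progenitors grown from mouse embryonic stem cells. All groups shared 1 line, labelled GLI1-FTA, on the A2Lox.cre strain. There were 2 untreated libraries collected at D5, 3 untreated libraries collected at D7, and 3 D7 libraries in which GLI1, a transcription factor of the Hedgehog pathway, was overexpressed with 500 ng/ml doxycycline given for 48 hours from D5 to D7. The controls had no doxycycline, so effects of the drug and of GLI1 cannot be told apart. Each sample had 150000 cells, and transposition ran for 30 minutes at 37 C. Each list pools its group's libraries, so no value below has a replicate error or a p-value. In a pooled cell population, fewer cells with a site open and a site less open in each cell cannot be told apart.

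The sarcomere slides thick filaments of myosin along thin filaments of actin. Calcium that enters through the L-type channel triggers release from the sarcoplasmic reticulum, and troponin on the thin filament reads that calcium. In the embryonic heart these genes come on as progenitors become beating cardiomyocytes, largely under MEF2, GATA, NKX2-5, TBX5 and serum response factor, with myocardin as a coactivator of the last. The genes are textbook markers of cardiomyocytes rather than of progenitors, and the labels describe the cells as progenitors.

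The 2 D7 lists were set side by side by joining overlapping regions into sites, of which the contractile and calcium genes held 102 of 53979. A site found only in the GLI1 list is called gained, one found only in the D7 control list lost, and one found in both shared. Of the 102 sites, 32 (31.4%, Wilson 95% interval 23.2 to 40.9%) were gained, against 31.1% of all D7 sites, and 36 (35.3%, 26.7 to 44.9%) were lost, against 22.7% of all. The gained share therefore lay at the level of all sites and the lost share above it, while 33.3% were shared against 46.2% of all. Promoters are more often shared than other sites, and 91.2% of these sites, against 81.5% of all, lay away from a promoter window. Away from promoter windows, 31 of 93 sites (33.3%, 24.6 to 43.4%) were gained against 37.3% of all such sites, and 35 (37.6%, 28.5 to 47.8%) were lost against 27.5%. Myocd and Atp2a2 have no such window, so all of their sites, also those at a gene end, count as away from one. With every list held to the same number of peaks, the set had 19 gained and 31 lost sites, where all sites had 9256 and 9032. Without the 5 genes over 250 kb, a choice made after seeing the data, 20 sites were gained and 20 lost. Over all sites, with every gene kept, 16766 were gained and 12271 lost. Intervals cover counting error only and treat sites as independent, though some lie side by side. The lost Tpm1 site chr9:67044554-67044824, for example, adjoins the shared site chr9:67043053-67044495. The lost Myl7 sites chr11:5892031-5892762 and chr11:5892872-5893071 are also neighbours.

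Folds of shared sites were read next, as the authors' fold of the summit over background. In both D7 lists that background was constant, 4.56 reads per base in control and 4.70 with GLI1, so a fold converts to whole reads at the summit (reads plus 1, over background plus 1), with 13 reads as the lowest in either list. The D5 list was called against a local background, so a D5 fold given beside D7 folds marks presence only and is not comparable in height. Among the 34 shared sites, 17 had a higher fold with GLI1 and 17 a lower one, whereas 58.9% of all shared sites were higher. The median log2 ratio of GLI1 to control was 0.06 (order-statistic interval −0.60 to 0.57), and 0.09 over all shared sites. The summits of these sites held 16 to 368 reads. The counting interval of a single ratio lay above 0 at 10 sites, below 0 at 11 and across 0 at 13. These intervals were not counted over all shared sites, so the numbers cannot be read as particular to the set. At least 2-fold higher with GLI1 were 4 of 34 (11.8%, 4.67 to 26.6%; 4.17% of all shared sites), and at least 2-fold lower 2 of 34 (5.88%, 1.63 to 19.1%; 7.30% of all).

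Most gained and lost sites were weak. A site of 1 list alone counts as strong from a fold of 5.04 (gained) or 4.91 (lost), values that are double what a peak needed in the opposite list. This held for 9 of 32 gained and 12 of 36 lost sites. With the shared sites past 2-fold, 13 of 102 sites (12.7%, against 9.14% of all) were strongly higher with GLI1 and 14 (13.7%, against 8.94%) strongly lower. The median fold was 4.04 at gained, 4.41 at lost and 8.51 at shared sites, and the median widths were 227.5, 271.5 and 898.5 bp. Over all sites the median folds were 3.86, 3.96 and 10.7, and the widths 254, 254 and 925 bp. Most gained and lost sites were thus weak over all sites too, and this was not particular to the set.

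**Figure D1:**
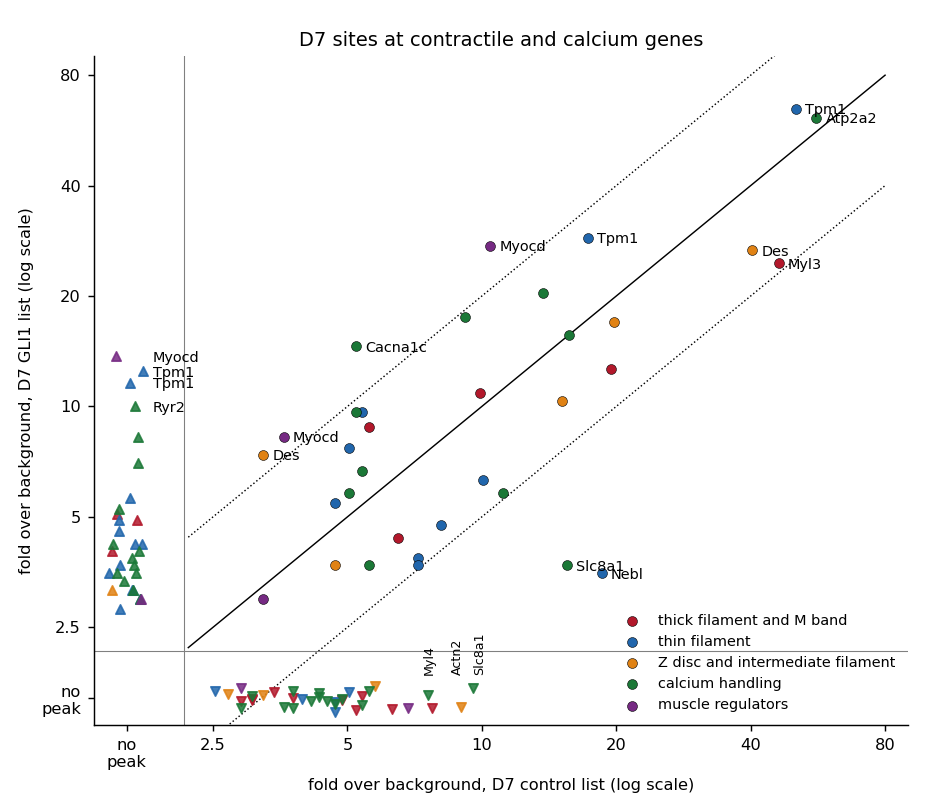
Fold over background of each D7 site at the 31 genes, D7 control list on the x axis and D7 GLI1 list on the y axis, both log scales; circles are shared sites, triangles in the margins are sites with a peak in 1 list only (sideways jitter has no meaning), colours are gene roles, and lines mark equal folds (solid) and a 2-fold difference (dotted). The shared sites split 17 to 17 about the line of equal folds, with 4 beyond the upper dotted line and 2 beyond the lower.

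The thick filament and M band genes held 18 D7 sites, with 3 gained, 10 lost and 5 shared. Their lost share was 55.6% (33.7 to 75.4%) against 22.7% of all sites and their gained share 16.7% (5.84 to 39.2%) against 31.1%, an interval that includes the share of all. No gene of these 9 had gained sites outnumbering its lost ones in the full lists. With lists of equal length Myom1 had a net of 1 gained site, and the nets of Myh6, Myl4 and Myl7 were 0, −1 and −2. The same nets were found with peaks of −log10 q of at least 5. Myl7, the atrial regulatory light chain and an early marker of heart muscle, had 3 lost sites and nothing else: folds of 5.40 and 5.22 and, at chr11:5892872-5893071, 3.06, the last also present at D5 with a fold of 5.18. All 3 lay 3.60 to 7.47 kb beyond the gene. Myl4, the atrial essential light chain, had 2 lost sites, of which chr11:104595518-104596489, 9.04 kb from the gene, had a control fold of 7.74 (42 reads). Its 2 shared sites had log2 ratios of 0.65 and 0.14.

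The 2 cardiac myosin heavy chains each had 1 D7 site, and both were lost. Myh7, the slow heavy chain that predominates in the embryonic ventricle, had chr14:54996936-54997626, 2.81 kb upstream of its start, with a control fold of 6.30 from 34 reads. Myh6, the atrial heavy chain, had a site of control fold 3.42 inside the gene, at chr14:54948860-54949059. Myl3, the ventricular essential light chain, had no gained or lost site, but its shared site was among the strongest of the set. That site, chr9:110781042-110782372, 11.8 kb from the gene, had a fold of 46.3 in control and 24.6 with GLI1, or 256 and 139 reads, and its log2 ratio was −0.91 (counting interval −1.22 to −0.61). The difference is larger than the counting error, with both D7 lists high.

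The remaining thick filament genes had equal numbers of gained and lost sites. Myl2, the ventricular regulatory light chain, had a gained site 1.45 kb upstream of its start (GLI1 fold 4.91) and a lost site 3.59 kb upstream (control fold 4.86). Ttn, the giant spring protein of the sarcomere, had 1 gained site of fold 5.09 and 1 lost site of fold 3.78, both inside the gene. Myom1, which ties myosin into the M band, had 1 of each and 2 shared sites. The stronger shared one, chr17:71153130-71154182, had folds of 19.4 in control and 12.6 with GLI1 (log2 ratio −0.62, −1.08 to −0.18). Mybpc3, cardiac myosin-binding protein C, had no region in any list.

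Of the 28 D7 sites of the thin filament genes, 13 (46.4%, 29.5 to 64.2%) were gained, 5 (17.9%, 7.88 to 35.6%) lost and 10 shared. Both intervals include the shares of all sites, 31.1% gained and 22.7% lost. The median log2 ratio of the shared ones was −0.23. The counting interval of the thick filament's lost share overlapped that of the thin filament by little, from 33.7 to 35.6%, and a difference between these groups was not tested. Tpm1 and Tnni1 held 10 of the 13 gained sites. Tpm1, tropomyosin 1, which covers the actin filament's myosin sites, had 6 gained, 2 lost and 5 shared sites; with lists of equal length its gained minus lost count turned from 4 to −1. Its gained site chr9:67012515-67013496, 9.57 kb from the gene, had a GLI1 fold of 12.5 (70 reads), and chr9:67071142-67072008, 21.8 kb on the other side, one of 11.6 (65 reads). Neither was in the D5 list. The other 4 gained Tpm1 sites were near the lower limit, with folds of 2.81 to 3.69.

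Within Tpm1, the site with the highest fold of the set in the GLI1 list, chr9:67043053-67044495, lay 5.30 kb into the gene and had folds of 50.6 in control and 64.8 with GLI1 (log2 ratio 0.36, 0.13 to 0.59). Its promoter had folds of 17.3 and 28.8 (log2 ratio 0.74, 0.36 to 1.12). The shared sites 56.4 and 66.5 kb upstream of the gene were lower with GLI1, with log2 ratios of −0.97 (−1.82 to −0.15) and −0.67 (−1.33 to −0.04). The 3 shared sites near the Tpm1 start were thus higher with GLI1 and the 2 distant ones lower.

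**Figure D2:**
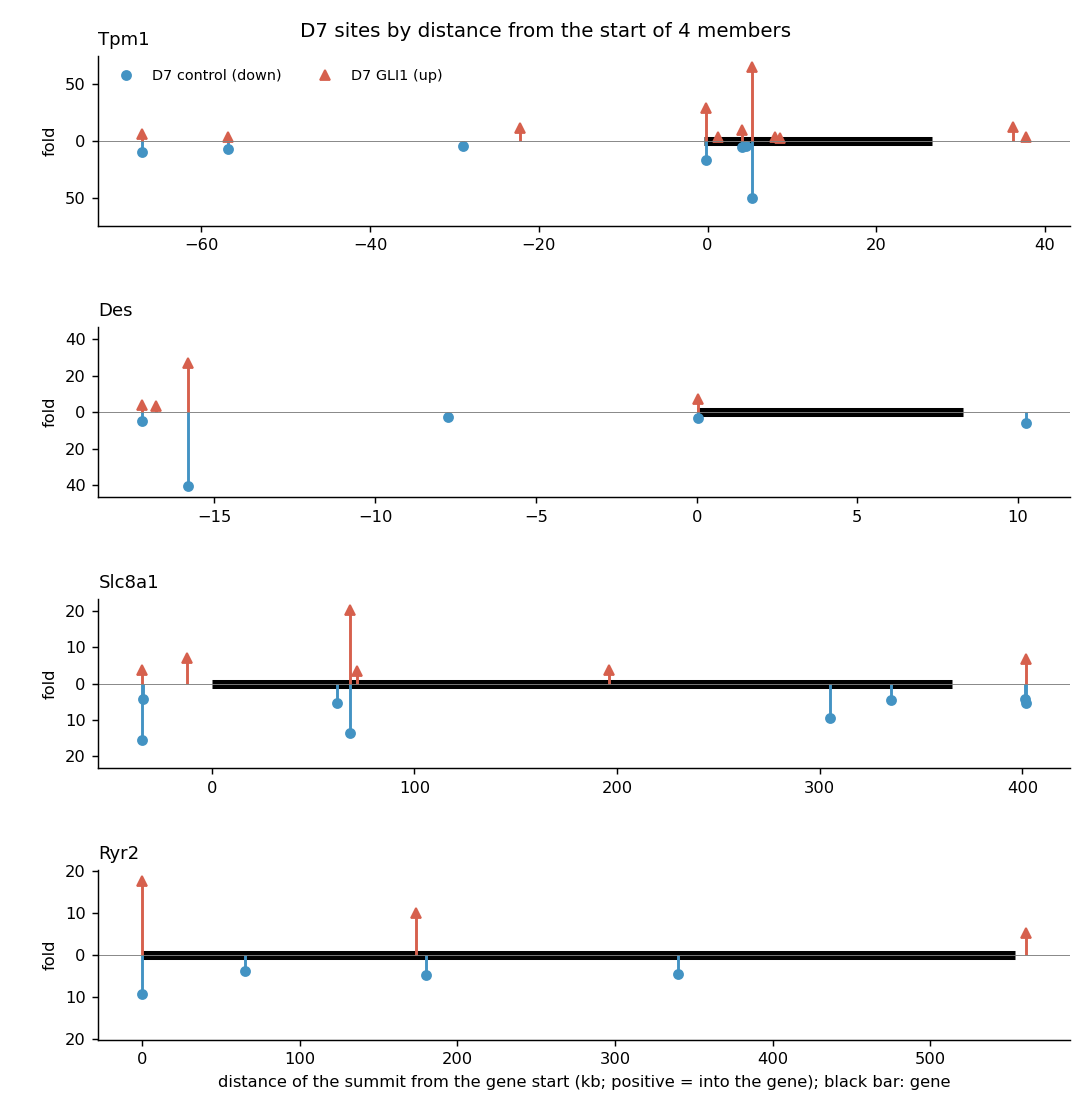
D7 sites of Tpm1, Des, Slc8a1 and Ryr2 by distance of the summit from the gene start in kb (positive into the gene; black bar, the gene), with the D7 GLI1 fold drawn upward and the D7 control fold downward. Shared sites have both marks, as at the Tpm1 promoter with 28.8 up and 17.3 down; a mark on 1 side alone is a gained or a lost site.

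Tnni1, the slow skeletal troponin I that the embryonic heart uses before the cardiac form, had 4 gained sites, with folds of 4.21 to 5.62, and 1 lost site of fold 3.96. The adult cardiac form, Tnni3, had no region in any list. Nebl, which encodes nebulette, an actin-binding protein near the Z disc, held the site with the lowest ratio in the set. At chr2:17523549-17524464, 2.17 kb from 1 of its starts, the fold was 18.5 in control and 3.51 with GLI1, or 102 and 19 reads (log2 ratio −2.40, −3.19 to −1.69). The D5 fold there was 3.57. The 2 Nebl sites near 11 kb upstream of its most upstream start were also lower with GLI1 (log2 ratios −0.77 and −0.90), and the promoter at that start had folds of 5.04 and 7.72 (log2 ratio 0.62, −0.11 to 1.37). Actc1, cardiac alpha actin, had a shared promoter site of folds 4.68 and 5.44 and a gained site of fold 4.56 inside the gene.

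The promoters of 2 thin filament genes each had a peak in 1 D7 list alone, and both peaks were close to the lowest that could be called. Tnnt2, cardiac troponin T and the usual marker of cardiomyocytes, had its only site of any list at 1 of its 2 starts, with a control fold of 2.52 (13 reads). Tnnc1, the calcium-binding troponin C of heart and slow muscle, had its only site at its start, with a GLI1 fold of 3.16 (17 reads). With 13 reads needed for a peak, neither presence in 1 list shows a difference. Their 300-base windows run from 250 bases before to 50 after the start. They are shown with that of Tpm1 as the weakest and the strongest of the thin filament promoters that had a D7 peak. Sequences are RefSeq's on GRCm38.p6, written 5′ to 3′ on the gene's strand, with every CpG in capitals.
Tnnt2 promoter (chr1:135836084-135836383, plus strand): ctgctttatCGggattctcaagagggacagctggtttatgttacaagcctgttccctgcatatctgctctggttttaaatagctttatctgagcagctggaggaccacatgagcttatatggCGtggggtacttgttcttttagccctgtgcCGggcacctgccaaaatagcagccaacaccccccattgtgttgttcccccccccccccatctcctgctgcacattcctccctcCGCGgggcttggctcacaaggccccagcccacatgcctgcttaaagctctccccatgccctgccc
Tnnc1 promoter (chr14:31208062-31208361, plus strand): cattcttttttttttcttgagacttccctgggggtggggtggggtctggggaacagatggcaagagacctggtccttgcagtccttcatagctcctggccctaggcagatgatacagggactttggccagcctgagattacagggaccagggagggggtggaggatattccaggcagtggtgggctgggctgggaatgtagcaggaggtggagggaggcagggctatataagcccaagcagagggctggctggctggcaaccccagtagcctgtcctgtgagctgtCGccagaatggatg
Tpm1 promoter (chr9:67049164-67049463, minus strand): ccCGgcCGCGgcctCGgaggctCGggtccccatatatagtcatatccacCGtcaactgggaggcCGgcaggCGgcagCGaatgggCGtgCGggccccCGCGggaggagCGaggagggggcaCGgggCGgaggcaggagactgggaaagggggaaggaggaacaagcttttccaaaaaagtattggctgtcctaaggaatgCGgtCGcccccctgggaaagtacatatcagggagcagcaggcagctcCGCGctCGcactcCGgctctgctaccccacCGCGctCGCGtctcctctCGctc
The Tnnt2 window has 5 CpG, the Tnnc1 window 1 and the Tpm1 window 27.

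The Z disc and intermediate filament genes had 10 D7 sites, with 1 gained (10%, 1.79 to 40.4%), 4 lost (40%, 16.8 to 68.7%) and 5 shared. Both intervals include the shares of all sites, 31.1% and 22.7%. Actn2, sarcomeric alpha-actinin, which crosslinks actin at the Z disc, lost chr13:12283372-12284185, 57.1 kb into the gene, with a control fold of 9.0 (49 reads). It also lost a weak site of fold 3.24 that D5 had at 3.57. Its promoter had folds of 19.8 and 17.0 (log2 ratio −0.22, −0.63 to 0.19). Ldb3, a Z disc scaffold, had 1 site inside the gene with folds of 15.1 and 10.4 (log2 ratio −0.55, −1.06 to −0.04). Csrp3, a muscle LIM protein, had 1 D5 region of fold 5.64 and none at D7, and Tcap, telethonin, had none in any list.

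Des, which encodes desmin, the muscle intermediate filament, had 6 D7 sites whose shared sites differed in opposite directions. The promoter site, chr1:75359864-75360746, had a fold of 3.24 in control (17 reads) and 7.37 with GLI1 (41 reads), a log2 ratio of 1.19 (0.34 to 2.1). The site 15.8 kb upstream, chr1:75343688-75345595, had folds of 40.3 and 26.7, or 223 and 151 reads, a log2 ratio of −0.60 (−0.90 to −0.29). Both intervals exclude 0, on opposite sides. The promoter had no D5 peak, while the upstream site had a D5 fold of 4.55. The Des promoter is shown because it was the 1 shared site at a promoter window of the set with at least a 2-fold difference at D7. Myocd and Atp2a2 have no promoter window and could not be counted here.
Des promoter (chr1:75360042-75360341, plus strand): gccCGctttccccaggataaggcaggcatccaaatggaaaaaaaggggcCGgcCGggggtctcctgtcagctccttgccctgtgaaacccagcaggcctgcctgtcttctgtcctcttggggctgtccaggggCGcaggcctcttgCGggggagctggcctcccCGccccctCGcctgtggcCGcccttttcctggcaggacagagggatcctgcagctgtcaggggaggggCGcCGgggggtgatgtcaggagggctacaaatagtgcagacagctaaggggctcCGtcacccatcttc
It holds 11 CpG, and it was the only window outside the CpG-rich group whose fold passed 7 in a D7 list.

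Calcium handling genes had the most sites, 39, of which 13 (33.3%, 20.6 to 49.0%) were gained, against 31.1% of all, 15 (38.5%, 24.9 to 54.1%) lost, against 22.7% of all, and 11 shared. The median log2 ratio of the shared sites was 0.20. Cacna1c, the pore of the L-type calcium channel, had 5 gained, 6 lost and 5 shared sites over its 610.1 kb. Inside it, chr6:118839039-118840158 had the highest ratio of the set, with folds of 5.22 and 14.6, or 28 and 82 reads (log2 ratio 1.48, 0.85 to 2.16). Another shared site, chr6:118639627-118640603, went the other way, at 11.2 and 5.79 (log2 ratio −0.95, −1.61 to −0.31), and a lost one at chr6:118680599-118681020 had a control fold of 7.56. The Cacna1c promoter had folds of 15.7 and 15.6. Ratios inside this 1 gene therefore spanned both directions while its promoter was level.

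Slc8a1, the sodium-calcium exchanger that removes calcium from the cell, had 3 gained, 5 lost and 3 shared sites. Its lost site chr17:81433066-81433731, inside the gene, had the highest control fold of any lost site in the set, 9.54 (52 reads). The shared site 34.2 kb upstream, chr17:81772257-81772988, had a fold of 15.5 in control and 3.69 with GLI1, or 85 and 20 reads (log2 ratio −2.07, −2.85 to −1.36). In contrast, a gained site 12.1 kb upstream had a GLI1 fold of 7.02, and the shared site with the highest GLI1 fold, 68.1 kb into the gene, had folds of 13.7 and 20.4 (log2 ratio 0.57, 0.14 to 1.01). No region lay at the Slc8a1 promoter window in any list. Lost and lowered sites thus lay among gained and higher ones along the same gene.

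Ryr2, the calcium release channel of the sarcoplasmic reticulum, had 2 gained, 3 lost and 1 shared site. Its shared site was the promoter, with folds of 9.18 in control and 17.6 with GLI1, or 50 and 99 reads (log2 ratio 0.94, 0.43 to 1.46), and a D5 fold of 7.39. The gained site chr13:11933400-11934049, 173 kb into the gene, had a GLI1 fold of 10.01 (56 reads), and its lost sites had control folds of 3.78 to 4.86. The promoter is shown as a CpG-rich one that was open in every list and higher with GLI1.
Ryr2 promoter (chr13:12106896-12107195, minus strand): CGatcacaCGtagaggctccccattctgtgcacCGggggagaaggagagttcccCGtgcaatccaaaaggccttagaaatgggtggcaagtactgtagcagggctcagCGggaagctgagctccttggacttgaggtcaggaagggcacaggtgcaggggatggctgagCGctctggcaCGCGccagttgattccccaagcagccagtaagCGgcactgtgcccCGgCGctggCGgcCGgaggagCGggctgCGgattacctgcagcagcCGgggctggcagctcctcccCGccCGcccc
It holds 18 CpG.

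Casq2, calsequestrin, which buffers calcium in the reticulum, had 3 gained sites and no lost one. The strongest, chr3:102126806-102127510, lay 40.9 kb into the gene with a GLI1 fold of 8.25 (46 reads), and the shared site 4.34 kb upstream had folds of 5.04 and 5.79. Atp2a2, the SERCA2 pump that refills the reticulum, had one of the 2 strongest sites of the set at a gene end, chr5:122501012-122503288, with folds of 56.2 and 61.3, or 311 and 348 reads (log2 ratio 0.13, −0.10 to 0.35). That interval leaves no room for a 2-fold difference by counting error alone. Pln, phospholamban, the inhibitor of that pump, had 1 D5 region of fold 5.06 and none at D7.

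The natriuretic peptide genes, whose products are hormones secreted by heart muscle and are common markers of the embryonic chamber myocardium, had no D7 site. Nppb had 2 D5 regions, 1 of them over its promoter with a fold of 8.09. Nppa, which lies beside it, had no region in any list. The Nppa promoter is shown as a closed one.
Nppa promoter (chr4:148000472-148000771, plus strand): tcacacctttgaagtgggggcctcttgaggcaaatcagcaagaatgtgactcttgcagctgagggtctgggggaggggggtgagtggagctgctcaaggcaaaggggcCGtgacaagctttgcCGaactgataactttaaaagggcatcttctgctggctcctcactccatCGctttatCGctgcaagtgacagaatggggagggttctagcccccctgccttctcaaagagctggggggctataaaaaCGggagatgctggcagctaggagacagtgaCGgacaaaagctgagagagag
It holds 6 CpG.

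The 2 regulators, Myocd and Smyd1, had 7 D7 sites, and Myocd held 6 of them. Myocd encodes myocardin, and the 3 regions on its high-coordinate side were higher with GLI1 or present there alone. The shared site at that gene end, chr11:65269297-65270656, had folds of 10.4 and 27.4, or 57 and 155 reads (log2 ratio 1.39, 0.94 to 1.86), and a D5 fold of 13.98. The shared site 56.1 kb from the gene, chr11:65325778-65326342, had folds of 3.60 and 8.25 (log2 ratio 1.20, 0.40 to 2.05). The gained site 60.7 kb from the gene, chr11:65330224-65331385, had the highest GLI1 fold of any gained site in the set, 13.7 (77 reads). Inside the gene, by contrast, the strongest site was lost, chr11:65235530-65236192, with a control fold of 6.84 (37 reads). Smyd1, a muscle methyltransferase needed for sarcomere assembly, had 1 weak shared site with folds of 3.24 and 2.98, which was also present in the D5 list (fold 8.31).

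Counted by gene, 5 members had more gained than lost sites (Tpm1, Tnni1, Casq2, Actc1 and Tnnc1), 11 had more lost than gained and 15 had equal numbers. Over all genes the order was the other way, with 5280 net gained and 3138 net lost. With lists of equal length Tpm1 turned to a net of −1 and Tnnc1 to 0, while Myom1 and Myocd turned from 0 to 1. Myh6 and Tnnt2 turned from −1 to 0, and Nebl from 0 to −3. The count over all genes is given for the full lists only. Of the 31 genes, 24 had a D7 site, 3 more (Csrp3, Pln and Nppb) a D5 region only, and 4 (Mybpc3, Tnni3, Tcap and Nppa) no region at all. The sites were unevenly spread. The 5 genes over 250 kb, Cacna1c, Ryr2, Slc8a1, Nebl and Ttn, held 41 of the 102 sites and 28 of the 68 gained or lost ones, though Ttn held only 2 and Tpm1, at 27.08 kb, 13.

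**Figure D3:**
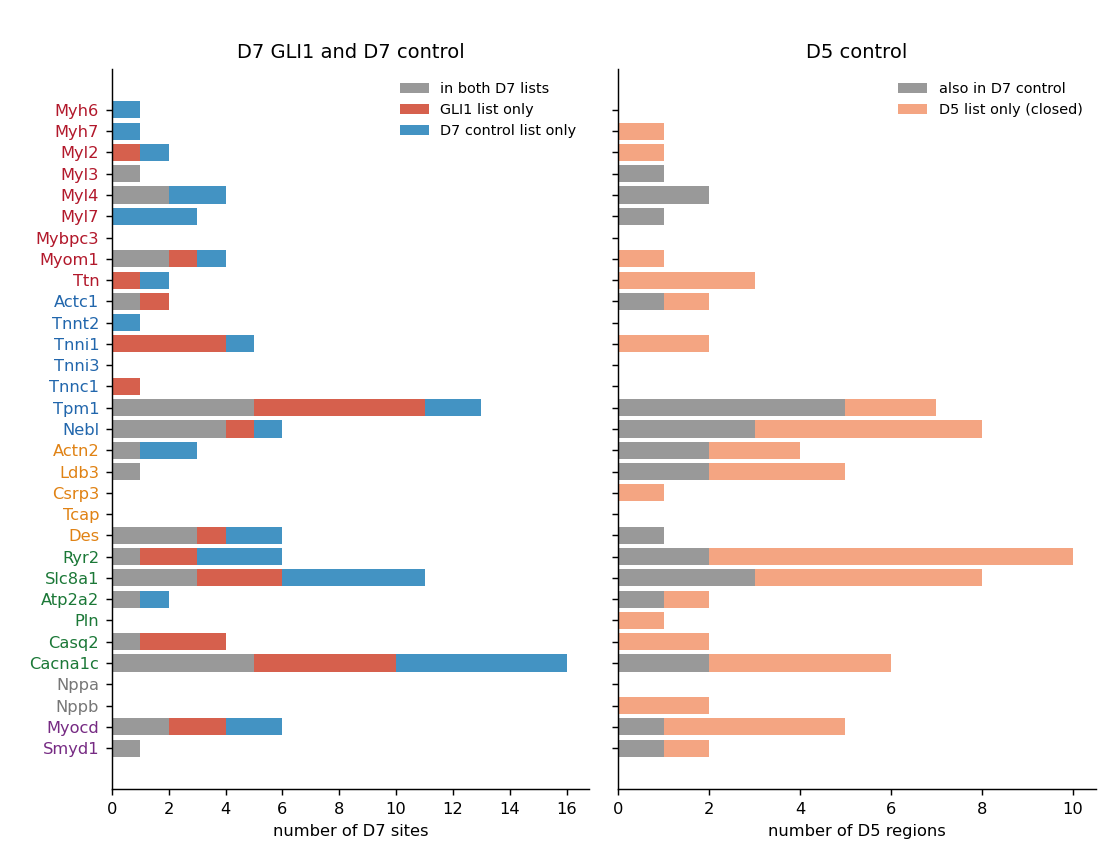
Number of sites per gene: left, D7 sites in both D7 lists (grey), the GLI1 list only (red) or the D7 control list only (blue); right, D5 regions also in the D7 control list (grey) or absent from it (orange), with gene names coloured by role as in the plot of folds. Cacna1c has the most D7 sites (16), Ryr2 the most D5 regions (10), and 4 genes have no bar on either side.

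Promoter accessibility was low for this set. RefSeq promoter windows matched 28 of the 31 genes, with 39 windows, and none for Myocd, Atp2a2 and Tcap. A peak overlapped a window of 9 of 28 genes (32.1%, 17.9 to 50.7%) in each of the 3 lists, against 56.1% of genes at D5, 57.3% in D7 control and 58.5% with GLI1. At D7 the open promoters of both lists were those of Des, Ryr2, Actn2, Myl4, Actc1, Nebl, Cacna1c and Tpm1, with Tnnt2 added in control and Tnnc1 with GLI1. The Myl4 window, with folds of 50.8 and 53.5, is shared with the start of the neighbouring gene Cdc27, so its signal cannot be given to Myl4 alone. At D5 the 9 were Ryr2, Actn2, Myl4, Nebl, Actc1, Nppb, Cacna1c, Myh7 and Tpm1, so 7 of the genes were open in all 3 lists, Cacna1c through different starts at D5 and D7. At the 7 shared promoter sites assigned to a member, 5 were higher and 2 lower with GLI1 (71.3% of all shared promoter sites were higher), and the median log2 ratio was 0.62 (−0.22 to 1.19), against 0.16 for all. At the 27 shared sites elsewhere, 12 were higher and 15 lower, with a median of −0.34 (−0.67 to 0.36), against 0.02 for all. These include the gene-end sites of Myocd and Atp2a2, which have no window.

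Promoter windows of the set were then read by their number of CpG. CpG dinucleotides are rare outside CpG islands, and island promoters are open in most cell types. In the D7 control list a peak overlapped 0 of 14 member windows with under 5 CpG, 3 of 19 (15.8%) with 5 to 14 and 6 of 6 with 15 or more. Over all promoter windows the shares were 4.56%, 45.8% and 91.1%. The member windows of the middle class held 5 to 11 CpG, the lower part of its range, so that class is not matched, and no difference was tested. With GLI1 the counts were 1 of 14, 2 of 19 and 6 of 6, against 4.89%, 48.4% and 92.4% of all windows. At D5 they were 2 of 14, 4 of 19 and 5 of 6, against 3.94%, 40.6% and 89.3%. The median was 5 CpG over the 39 windows and 13 over all promoters. The 24 windows open in no list, from 19 genes, held 1 to 9 CpG.

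**Figure D4:**
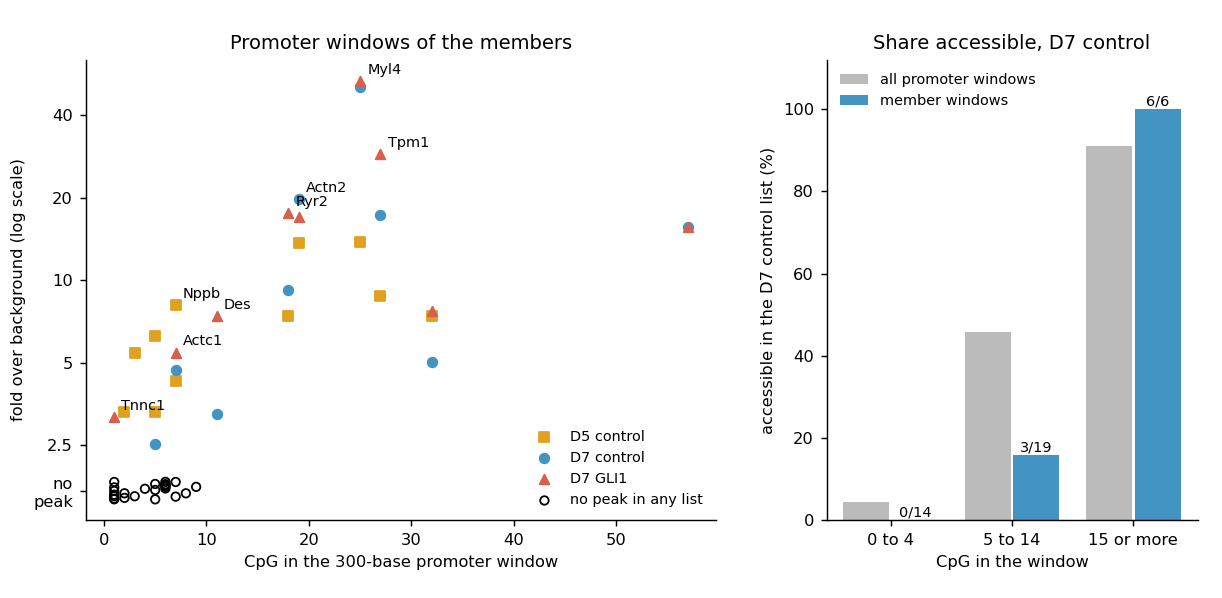
Left, fold over background (log scale) at each promoter window of the 28 genes by its number of CpG, for the D5 control (squares), D7 control (circles) and D7 GLI1 (triangles) lists, with open circles for windows without a peak in any list; D5 folds have another background and are not comparable in height. Right, percent of windows with a D7 control peak by CpG class, for all promoters (grey) and for members (blue, with counts), where the middle class has 3 of 19 against 45.8% of all.

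Binding motifs known for heart muscle genes were searched in the same windows on both strands. The CArG box, the site of serum response factor, was in 7 of 39 windows (17.9%, 8.98 to 32.7%) and in 1.52% of all windows. These were the windows of Actc1, Myl7, Myl3, Myom1, Ldb3 and Nebl, where Ldb3 has the same box in 2 overlapping windows. Of the 7, the Actc1 window was open and the other 6 were open in no list. The boxes are shown in capitals with 12 bases on each side, because this motif had the largest ratio of member to all windows.
Actc1 (chr2:114052901-114052934, minus strand): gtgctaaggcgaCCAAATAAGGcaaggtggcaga
Myl7 (chr11:5898822-5898855, minus strand): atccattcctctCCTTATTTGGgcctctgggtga
Myl3 (chr9:110763581-110763614, plus strand): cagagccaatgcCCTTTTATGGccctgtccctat
Myom1 (chr17:71019446-71019479, plus strand): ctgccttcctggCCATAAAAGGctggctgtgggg
Ldb3 (chr14:34588695-34588728, minus strand): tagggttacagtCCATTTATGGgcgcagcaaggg
Nebl (chr2:17462997-17463030, minus strand): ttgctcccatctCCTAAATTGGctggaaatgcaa
MEF2 sites were in 3 windows (7.69%; 2.74% of all), those of Casq2, Mybpc3 and Ttn, all open in no list. AGATAA, the GATA motif, was in 8 windows (20.5%; 9.65% of all), and CATTCC, the M-CAT motif of TEAD factors, in 10 (25.6%; 13.6%). The GLI core CCACCCA was in 8 windows (20.5%; 9.46%), of which 4 were open in some list, and CACTTAA, bound by NKX2-5, in 1 (2.56%; 2.13%). TATAAA was in 7 (17.9%; 12.6%), and CANNTG, the E-box, which can overlap the other motifs, in 34 (87.2%; 69%). A match describes the letters of these windows and does not show binding.

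Between D5 and D7 in untreated cells most regions of the set were found at 1 time only. Of 75 D7 control regions, 49 (65.3%, 54.1 to 75.1%) had no D5 region, against 55.0% of all, and of 78 D5 regions, 50 (64.1%, 53.0 to 73.9%) had no D7 control region, against 50% of all. The first interval includes the share of all regions and the second does not. The D5 list was called against a local background, unlike the D7 lists, so presence alone was compared, and the part of calling in these shares was not tested. Ryr2 had 8 of its 10 D5 regions closed by D7, including chr13:12036867-12037121 and chr13:12030497-12030881 with D5 folds of 12.02 and 11.4. Ttn, Nebl and Tpm1 also had D5 regions with folds of 9.62 to 11.4 and no D7 region in either list. Cacna1c had the most opened regions, 10.

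The sites that differed at D7 were then looked up in the D5 list. Of the 32 gained sites, 1 (3.12%, 0.554 to 15.7%) was in the D5 list, against 13.5% of all gained sites; it is the Ryr2 site chr13:11545902-11546138, with a D5 fold of 4.39 and a GLI1 fold of 5.27. Of the 36 lost sites, 5 (13.9%, 6.08 to 28.7%) were in the D5 list, against 8.95% of all lost sites. These were at Myl7, Actn2, Slc8a1, Cacna1c and Tpm1, the strongest at D5 being the Slc8a1 site chr17:81676354-81676625 with a D5 fold of 10.5 and a D7 control fold of 5.40. Both intervals include the share of all sites. Of the shared sites, 19 of 34 (55.9%) were in D5, against 65.1%. Followed forward, 23 of the 78 D5 regions (29.5%; 47.0% of all D5 regions) were in both D7 lists, 5 (6.41%; 3%) in control alone, 1 (1.28%; 6.27%) with GLI1 alone and 49 (62.8%; 43.7%) in neither.

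Other gene lists, measured in the same way, give the setting. A further 41 sarcomere and calcium genes had 152 D7 sites with 47 gained, 47 lost and 58 shared (30.9% gained and 30.9% lost), and gained sites outnumbered lost ones at 13 of the genes and the reverse held at 10. Named by the rule, Hspb7 and Jph2 had 2 gained and no lost site each and Palld 7 and 5, while Asph had 3 lost and no gained site, Srl 2 and none, and Rbm20 5 lost and 3 gained. Ankrd1 and Trdn had the same net count as Srl and Rbm20, and the tie was broken by the highest fold of a lost site. The lost share was 30.6% (18 to 46.9%) at 24 skeletal muscle genes and 35.1% (21.8 to 51.2%) at 10 smooth muscle genes. It was 28.3% (18.5 to 40.8%) at 11 cardiac progenitor markers and 32.3% (18.6 to 49.9%) at 12 housekeeping genes. Each of these shares lay above the 22.7% of all sites, but each of these intervals includes it. The interval of the lost share at the further sarcomere and calcium genes, 24.1 to 38.7%, lay above 22.7%. A lost share above that of all sites was thus not particular to the 31 contractile and calcium genes. Open promoters in D7 control were 14 of 27 for the further sarcomere and calcium genes, 3 of 19 for skeletal muscle, 4 of 7 for smooth muscle, 7 of 7 for progenitor markers and 8 of 9 for housekeeping genes. The 9 of 28 of the contractile and calcium genes lay between skeletal muscle and the progenitor markers, the class named on the labels. With GLI1, 5 of 7 progenitor promoters had a peak. Those of Nkx2-5 and Hand2, with control folds of 3.24 and 3.06, had none. Both folds were near 2.52, the lowest in the D7 control list, so neither absence shows a difference. Isl1 had folds of 28.1 in control and 40.4 with GLI1, and Mef2c 16 and 21.9. Pdgfra (25.4 and 29.8) and Tbx20 (8.64 and 10.5) were also higher with GLI1, and Kdr (23.2 and 19.1) was lower.

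**Figure D5:**
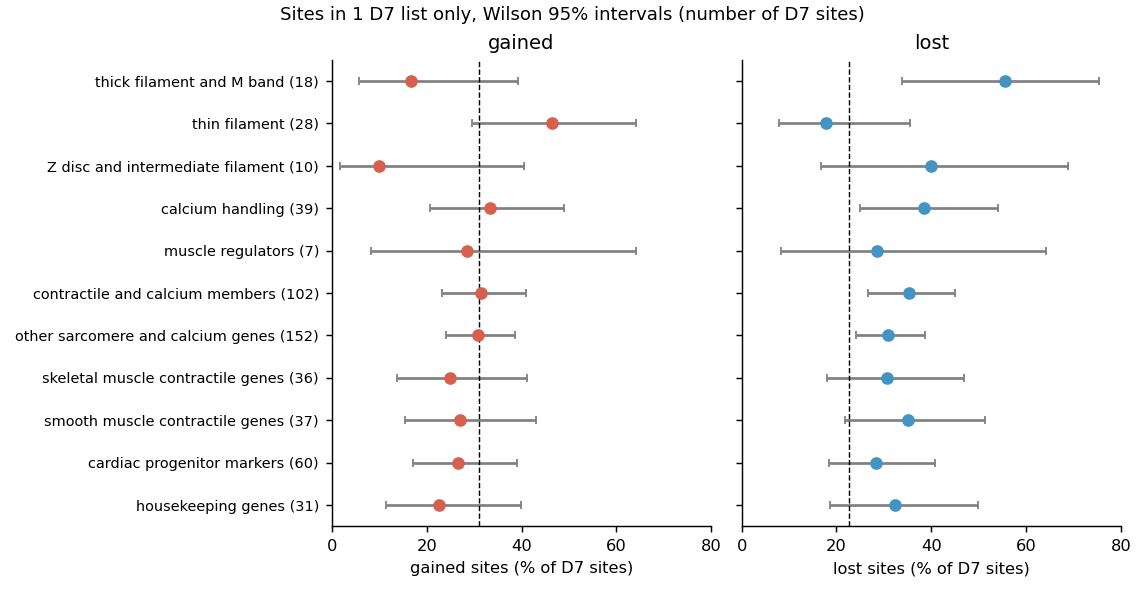
Percent of D7 sites gained (left) or lost (right) with GLI1, with Wilson 95% intervals and the number of sites in brackets, for each role of the contractile and calcium genes, for the whole set and for 5 other lists; the dashed line is the share of all D7 sites (31.1% and 22.7%). The thick filament's lost share of 55.6% and the thin filament's gained share of 46.4% are the highest points of the panels, and the intervals of most lists are wide.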

How the data were processed

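Peaks of 8 ATAC-seq libraries were used as 3 deposited lists, 1 for each group (2, 3 and 3 libraries). That the second control list holds D7 cells was inferred from file names, since D5 has a list of its own. Per the submitters' processing notes, the authors used Bowtie2 2.3.2, SAMtools 1.5, Picard and MACS2 2.1.1 on mm10; parameters are not given in the sources used here. In each list the authors deposited a fold over background (a ratio), a −log10 p, a −log10 q, a score that follows the −log10 q, and the offset of the summit in bases. No per-sample column was left unused (0).

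Peaks that overlap within a list became 1 region, and regions of the D7 lists that overlapped by at least 1 base were joined into sites. A site took its gene from its strongest summit, and where genes overlap, the gene whose end was closer. Read numbers at D7 summits were recovered from the folds: all folds were whole multiples of 1 read, 0.180 in control and 0.176 with GLI1, to within 0.01 steps, and the deposited p-values matched a Poisson count at the 56435 and 61532 peaks where it could be computed. The GLI1 background was 3.11% higher. Depth was read from these backgrounds alone, as library totals were not used here. Counting intervals on ratios are 95% binomial intervals on the reads at both summits and, like the Wilson intervals, cover counting error only. The scripts, in Python 3.11.15 with pandas 2.3.3, scipy 1.17.1 and numpy 2.4.6, were tested on simulated peaks. Promoter sequences are RefSeq's, on GRCm38.p6.

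The members and gene lists were chosen with earlier results of these data known. All 31 members may be named. Sites named are the 6 gained and 6 lost of highest fold, the 6 shared with the highest and the 6 with the lowest ratio, the strongest site of each member in each list, promoter sites, and gained or lost sites present at D5; other member sites named beside them were chosen after their values were seen. In other lists, the 3 genes with the most and the 3 with the fewest gained minus lost sites are named for the list of the same pathway, with ties broken by the highest fold of a gained or lost site. Progenitor markers with an open promoter in D7 control are also named. Exon and intron positions were not used here. Alternatives are given in the closing section.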

Additional observations from a re-analysis of the deposited data

How the results depend on the processing

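Of 65 recomputed values of the main comparisons, 52 stayed within 1.5 times of the reported count or within its spread; of 124 net counts for single genes, 87 did not change, 35 moved and 2 changed sign. With each list at the same number of peaks, gained sites were 19 in place of 32 and lost sites 31 in place of 36, with 9256 gained and 9032 lost over all sites, and Tpm1 had 1 more lost than gained site (a net of −1). With peaks of −log10 q of at least 5, strongly higher sites were 8 and strongly lower 6 (13 and 14 reported), against 2134 and 2669 over all sites, closed D5 regions 26 in place of 50 (8532 over all), gained sites in D5 0 and lost sites in D5 2. At 1.5-fold in place of 2-fold, strongly higher and lower sites were 28 and 36 (12246 and 10408 over all sites). Centred on all shared sites, the median log2 ratio was -0.029 in place of 0.06, so its sign is not settled. By nearest gene end, Cacna1c had a net of 1 gained site in place of 1 lost. Lost sites ranged from 26 to 39. An alternative chosen after seeing the data, without the 5 genes over 250 kb, gave 20 gained, 20 lost, 8 strongly higher and 8 strongly lower sites. Lost sites thus did not outnumber gained ones without these genes, and no share over all sites is given for this alternative. Over all sites, with every gene kept, gained outnumbered lost, 16766 to 12271. Equal counts therefore do not put the lost share at the level of all sites. No paired analysis was possible because the lists hold pooled peaks with no value per library, and leaving out a library could not be done either. Depth limits the weak sites: a peak needed 13 reads at its summit, so presence in 1 list near that number does not by itself show a difference in signal.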
